A study of Mus musculus with 185 samples.

Results

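The genes described here carry the signal of the interleukin-6 (IL-6) family of cytokines into the cell. They are the receptor genes Osmr, Lifr, Il6ra and Cntfr, the shared receptor subunit Il6st (gp130), the transcription factor Stat3 and its feedback inhibitor Socs3. These 7 genes were picked by name from the 57010 genes of the count matrix. They were selected on results of the same counts, above all on the difference between high-fat diet and chow at 16 h, so that contrast is given below as a description without a p-value. The 16 h comparison of fasting with chow uses the same chow mice. The 24 h study used other mice, but the genes were chosen with earlier results of these data known. Its p-values for single members are therefore not independent support.

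The animals of both studies were males of the inbred strain C57BL/6 J, obtained at an age of 8 weeks. In the 16 h study the mice were housed 2 per cage and were kept on chow, moved to a high-fat diet (HFD) or fasted, with 6 mice in 3 cages for each condition. In the 24 h study the mice were housed singly from 3 days before the start, and 9 mice kept on chow were compared with 10 fasted mice. The labels name no transgene and no agent other than the diet. Total RNA depleted of ribosomal RNA was sequenced from 5 brain regions per mouse: hypothalamus, hippocampus, superior and inferior colliculus, and either frontal cortex (16 h) or zona incerta (24 h). The matrix names the mouse of a column but not its region, so its 5 columns were added up, and levels are given as CPM, the count of a gene scaled to a total of 1000000 per mouse. In such bulk tissue, fewer cells of a type and less RNA per cell cannot be told apart.

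Most cytokines of this family act through receptor complexes that contain gp130. Oncostatin M binds Osmr paired with gp130, leukemia inhibitory factor (LIF) binds Lifr paired with gp130, ciliary neurotrophic factor uses Cntfr with Lifr and gp130, and IL-6 binds Il6ra before it recruits gp130. Kinases of the JAK family bound to the receptors then phosphorylate STAT3, which enters the nucleus and induces Socs3, whose product blocks the kinases. In the brain the pathway is known for the reactive state of astrocytes, and STAT3 and SOCS3 also serve the leptin receptor of hypothalamic neurons.

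Osmr and Lifr are neighbours on chromosome 15 of the mouse genome (GRCm39, GENCODE vM39). Osmr (ENSMUSG00000022146, minus strand) runs from 6843053 to 6904450 and Lifr (ENSMUSG00000054263, plus strand) from 7120095 to 7226970, with 215644 bases and 0 other protein-coding genes between them. Il6st (ENSMUSG00000021756) lies on chromosome 13 from 112600604 to 112646620, plus strand. The minus strand genes are Il6ra on chromosome 3 (ENSMUSG00000027947, 89771366 to 89820719), Cntfr on chromosome 4 (ENSMUSG00000028444, 41657498 to 41697089), Stat3 on chromosome 11 (ENSMUSG00000004040, 100775924 to 100830450) and Socs3 on the same chromosome (ENSMUSG00000053113, 117856905 to 117860898). Genes on the opposite strand overlap Il6st (6720470G18Rik), Il6ra (Gm42809), Stat3 (Stat5a) and Socs3 (Gm57366) and are rows of the matrix themselves. The strand used in counting is not given in the sources used here, so reads of these pairs may not have been told apart.

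The 250 bases before the first annotated base of Osmr, Lifr and Il6st are shown as examples of receptor genes that shifted at 24 h, the first 2 upwards and the third downwards. Il6ra also rose at 24 h, but its window is not printed here. The bases are written 5′ to 3′ in the direction of the gene. Capitals mark the palindrome TTCNNNGAA, the core that STAT proteins bind, and the CCAAT box on either strand (CCAAT or ATTGG). The stretches are chr15:6904451-6904700 (minus strand), chr15:7119845-7120094 (plus) and chr13:112600354-112600603 (plus) of GRCm39. The last of them overlaps an exon of the antisense transcript 6720470G18Rik.
Osmr: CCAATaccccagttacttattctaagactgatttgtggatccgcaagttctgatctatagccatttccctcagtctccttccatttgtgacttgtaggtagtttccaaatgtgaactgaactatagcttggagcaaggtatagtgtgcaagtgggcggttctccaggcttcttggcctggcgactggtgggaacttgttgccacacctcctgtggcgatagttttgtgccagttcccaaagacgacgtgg
Lifr: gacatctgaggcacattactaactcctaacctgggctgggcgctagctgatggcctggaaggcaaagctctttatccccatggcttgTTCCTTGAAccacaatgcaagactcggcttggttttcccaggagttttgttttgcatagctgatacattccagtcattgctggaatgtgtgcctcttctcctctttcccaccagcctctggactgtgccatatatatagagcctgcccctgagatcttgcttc
Il6st: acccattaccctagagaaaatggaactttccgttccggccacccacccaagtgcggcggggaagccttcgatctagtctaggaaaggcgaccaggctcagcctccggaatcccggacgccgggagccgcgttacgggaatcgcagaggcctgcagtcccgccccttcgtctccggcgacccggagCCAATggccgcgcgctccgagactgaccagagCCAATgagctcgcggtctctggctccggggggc
Socs3, the classical STAT3 target, is shown with the match in the RefSeq window before its start (RefSeq table of GRCm38.p6, found by exact match at chr11:117860328-117860356 of GRCm39, minus strand). In GENCODE this stretch lies within untranslated sequence at the start of a Socs3 transcript.
Socs3: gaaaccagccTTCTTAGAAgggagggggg

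Among the 250-base windows of the 7 genes, 1 (Lifr) held TTCNNNGAA and 3 (Osmr, Il6ra and Il6st) held a CCAAT box. Of the windows of 21757 protein-coding genes, 7.82% held the former and 36.1% the latter. Of the 13 RefSeq windows of these genes, 1 (Socs3) held TTCNNNGAA, against 7.02% of 32851 windows. These letters are a description of the sequence, and nothing follows from them about binding.

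Among the members, Socs3 had the fewest counts. Total counts per mouse ran from 57962237 to 161577364, and the counts of Socs3 per mouse from 100 to 832. Of the 185 columns, 27 had under 1000000 counts or under 16000 genes in a draw of 500000 counts: 1 from 16 h chow, 3 from 16 h fasted, 11 from 24 h chow and 12 from 24 h fasted mice. Mitochondrial genes took 3.78% to 4.98% of the counts at 16 h and 8.57% to 16.7% at 24 h. Study, housing, regions and sequencing run changed together, so levels are compared only within a study. Within the 24 h study the authors describe a first block of samples without detectable RNA, sequenced on a separate flowcell and discarded as defective. Which columns belong to that block was not determined here, so the run and the mix of regions may differ between 24 h mice. All 185 columns were kept in the sums, which may therefore hold libraries of that block. The deposited notes place the superior colliculus of mice 1423 (chow) and 1454 (fasted) in each other's tubes. The authors state that the metadata of both samples were corrected for this swap, and all columns were kept here under their headings. The p-values treat the mice of a cage as separate. Markers of the labelled tissue were present, with 6 neuron markers summing to 3522 to 4722 CPM and 7 astrocyte markers to 3942 to 6022 CPM over all mice.

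On chow, the receptor subunits that serve many cytokines had the highest levels. Per kilobase of exon, Il6st stood at 9.74 ± 0.419 CPM and Lifr at 8.88 ± 0.421 in the 6 chow mice of the 16 h study (mean ± SD). Cntfr at 5.92 ± 0.375 and Stat3 at 5.77 ± 0.227 followed, then Il6ra at 0.818 ± 0.0814, Socs3 at 0.623 ± 0.0782 and Osmr at 0.466 ± 0.0231. Osmr was thus the lowest of the 7 genes per length. Cntfr and Stat3 overlapped in these mice, as did Socs3 and Osmr, whereas the other neighbours in the order had separate ranges. In the 9 chow mice of the 24 h study the order was the same, with Il6st at 10.6 ± 0.976, Cntfr at 7.89 ± 1.23 and Osmr at 0.472 ± 0.0551 CPM per kilobase. There, Il6st and Lifr overlapped, as did Lifr and Cntfr, Cntfr and Stat3, Il6ra and Socs3, and Socs3 and Osmr.

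Osmr was higher on HFD than on chow. In the 6 chow mice of the 16 h study it ran from 5.54 to 6.18 CPM with a median of 5.63, and in the 6 HFD mice from 6.06 to 8.53 with a median of 7.08. Of the HFD mice, 5 lay above the highest chow mouse, and the lowest HFD mouse lay below 2 chow mice. This is a log2 fold change of 0.34 ± 0.07 (SE), or 1.27-fold. By the labelled start times, the cages began in 3 successive rounds with 1 cage of each diet, and the log2 ratio of the mean CPM on HFD to that on chow was 0.48, 0.16 and 0.27 in them. Within a mouse the columns also spread: the medians over mice of the lowest, middle and highest usable column were 4.68, 5.50 and 6.87 CPM on chow and 5.36, 6.44 and 9.51 CPM on HFD. All 3 of these summaries were higher on HFD.

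**Figure D1:**
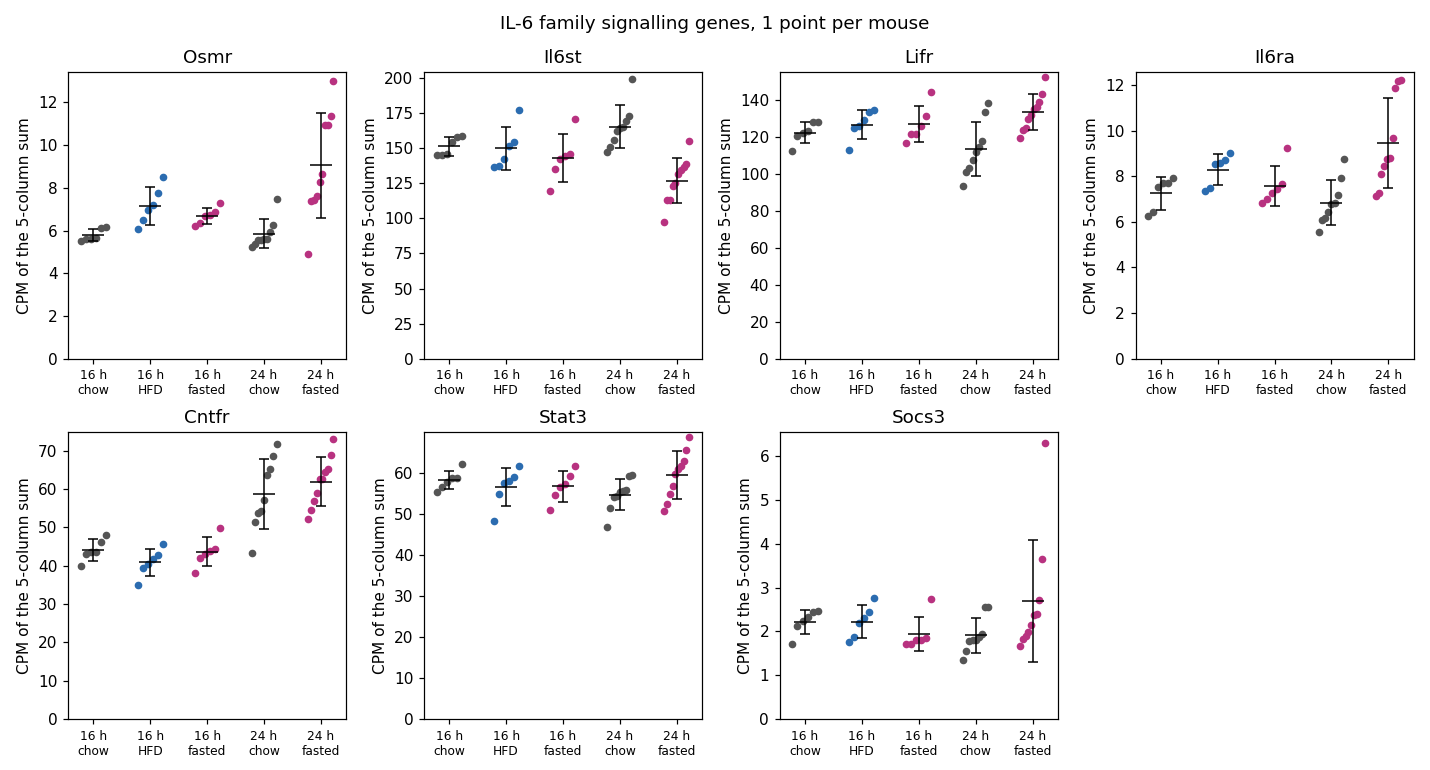
CPM of the 7 genes in the sum of the 5 columns of each mouse (y axis, linear, from 0) by study and diet (x axis), with 1 point per mouse and black marks for the mean ± SD. Osmr lies between 5.54 and 6.18 in the 16 h chow mice and between 6.06 and 8.53 in the HFD mice, and at 24 h Il6st is lower in 9 of 10 fasted mice than in any chow mouse, while Il6ra and Lifr are above the chow median in all 10.

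Il6ra, the binding subunit for IL-6, was the only other member whose log2 fold change on HFD exceeded 0.1 in size. It ran from 6.24 to 7.91 CPM on chow (median 7.60) and from 7.37 to 9.00 on HFD (median 8.57), with a log2 fold change of 0.22 ± 0.09. The ranges overlapped, with 4 of 6 HFD mice above the highest chow mouse, and the log2 ratios within the rounds were 0.18, 0.07 and 0.31. Lifr, the partner of gp130 in the LIF receptor, had a median of 123 CPM on chow (113 to 128) and 128 on HFD (113 to 135), a log2 fold change of 0.08 ± 0.06. Within rounds the ratio for Lifr had both signs, at 0.10, -0.11 and 0.15. Cntfr, which is anchored to the membrane and binds ciliary neurotrophic factor, had a median of 43.5 CPM on chow and 41.0 on HFD, with a log2 fold change of -0.08 ± 0.06. Its ratio was below 0 in each round, at -0.11, -0.08 and -0.14.

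The shared subunit and the genes downstream of the receptors differed little on HFD. The log2 fold change was 0.02 ± 0.06 for Il6st, -0.01 ± 0.05 for Stat3 and 0.04 ± 0.13 for Socs3. Il6st ran from 145 to 158 CPM on chow and from 137 to 177 on HFD, and Stat3 from 55.4 to 62.1 and from 48.2 to 61.7, so that the range was wider in the HFD mice for both. Socs3 ran from 1.71 to 2.46 CPM on chow and from 1.77 to 2.77 on HFD. Across all genes, 0 of 29746 were called between HFD and chow (0%) at an edgeR adjusted p under 0.05, with 2914 at an unadjusted p under 0.05, and limma called 0 and DESeq2 called 5. The median log2 fold change was 0.04 over the 7 genes and -0.01 over all genes tested. By edgeR 0 of the 7 genes were called, and by DESeq2 1, Osmr. Since they were chosen by this contrast, nothing is read from either count.

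Choroid plexus transcripts had higher medians on HFD but were not called, and their ranges overlapped. The summed level of 6 choroid plexus markers ran from 29.1 to 113 CPM on chow (median 34.6) and from 33.0 to 586 on HFD (median 71.2), and their median log2 fold change was 1.20, with 0 of 6 called. Ttr (transthyretin), the most abundant of these, ran from 4.99 to 82.4 CPM on chow and from 5.04 to 514 on HFD. With the column of highest Ttr left out of each mouse, the log2 fold change of Osmr on HFD was 0.41 and that of Il6ra was 0.26. The microglial markers summed to 148 to 179 CPM on chow and 175 to 192 on HFD, with 0 of 6 called, and their part in the result was not tested.

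**Figure D2:**
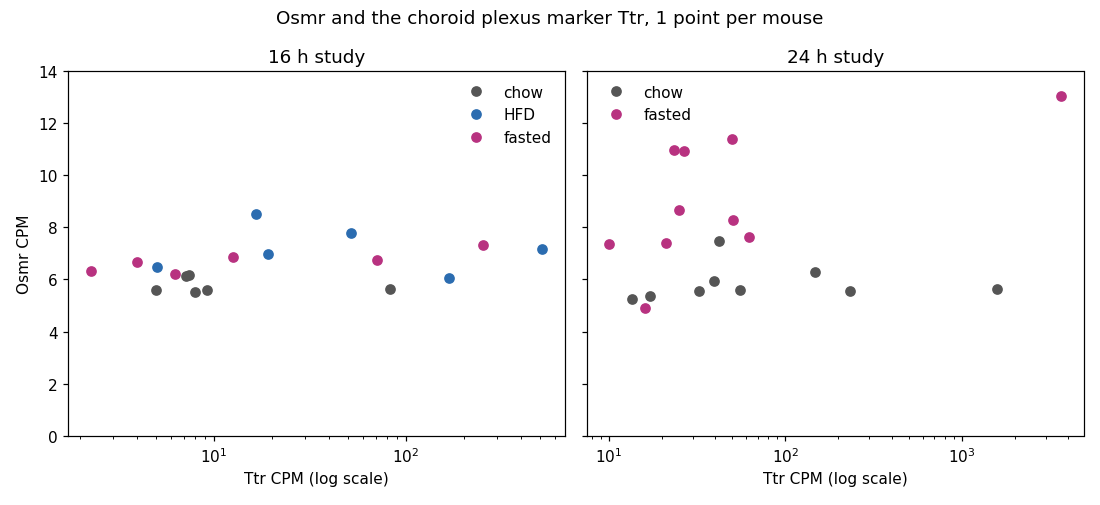
Osmr CPM (y axis, linear) against the CPM of the choroid plexus marker Ttr (x axis, log scale) with 1 point per mouse, in the 16 h study (left) and the 24 h study (right). Ttr reaches from 4.99 to 82.4 CPM in the 16 h chow mice and from 5.04 to 514 in the HFD mice, and at 24 h the 2 mice farthest to the right, at 1576 (chow) and 3651 CPM of Ttr (fasted), have 5.63 and 13.0 CPM of Osmr.

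After 16 h of fasting, Osmr differed from chow in the same direction, but no member was called. The 6 fasted mice had 6.20 to 7.31 CPM of Osmr, around a median of 6.70. All 6 lay above the highest chow mouse, by a small margin for the lowest. The log2 fold change was 0.23 ± 0.07 (edgeR adjusted p = 0.565), and the log2 ratios within the rounds were 0.17, 0.31 and 0.15. Of the 29746 genes tested, 36 (0.121%) were higher in every fasted mouse than in every chow mouse, Osmr among them. Osmr was chosen by a contrast with these same chow mice, so its place among these genes is only a description. By edgeR, 0 genes were called at 16 h of fasting (0%), and 2267 had an unadjusted p under 0.05, while the smallest adjusted value was 0.125. DESeq2 called 19 genes in this comparison, with 0 of the 7 genes among them, and limma called 0.

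The other 6 genes had log2 fold changes between -0.16 and 0.09 at 16 h of fasting. Il6ra ran from 6.82 to 9.23 CPM in the fasted mice, with mouse 12 highest, and had a log2 fold change of 0.09 ± 0.09 (edgeR adjusted p = 0.844). Lifr had 0.07 ± 0.06 (adjusted p = 0.788), Cntfr 0.00 ± 0.06 (adjusted p = 0.994) and Stat3 -0.02 ± 0.05 (adjusted p = 0.931). Il6st ran from 119 to 171 CPM, a wider range than the 145 to 158 of the chow mice, and 4 of 6 fasted mice lay below the lowest chow mouse. Its log2 fold change was -0.06 ± 0.06 (adjusted p = 0.838). Socs3 ran from 1.70 to 2.73 CPM with a log2 fold change of -0.16 ± 0.14 (adjusted p = 0.804), and 5 of the 6 fasted mice lay between 1.70 and 1.86. The sign of Cntfr, Stat3 and Socs3 in this comparison changed with the processing.

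After 24 h of fasting, 5 of the 7 genes were called, 4 of them higher and 1 lower. Among all 29011 genes tested, 3307 (11.4%) were called, 1676 higher (5.78%) and 1631 lower (5.62%). The median log2 fold change was 0.29 over the 7 genes and -0.0044 over all genes. With limma on column log2 CPM averaged per mouse, 2 members were called, Osmr (adjusted p = 0.0484) and Lifr (0.0280), and the calls of Il6ra (0.0729), Il6st (0.143) and Stat3 (0.227) were lost. The members were chosen by name with earlier results of these data known, so their count is given beside the share of all genes and not as a test of the list.

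**Figure D3:**
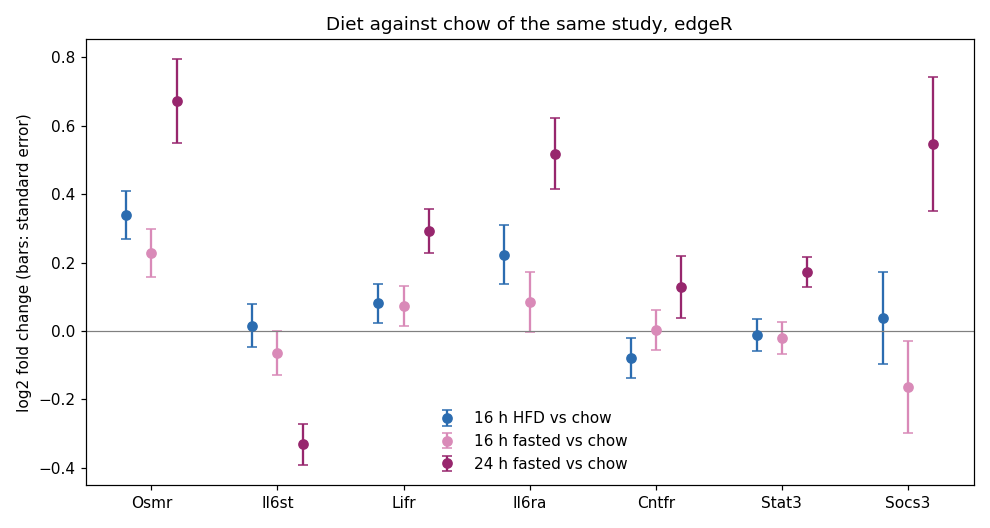
The log2 fold change of each gene against chow of the same study (y axis, 0 marked by a grey line) with bars for the standard error, for HFD at 16 h, fasting at 16 h and fasting at 24 h (colours). Osmr is above 0 in all 3 comparisons, at 0.34, 0.23 and 0.67, and the 2 comparisons at 16 h share their chow mice. Il6st is at -0.33 after 24 h of fasting and near 0 at 16 h.

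Osmr rose most. It ran from 5.25 to 7.49 CPM in the 9 chow mice (median 5.58). In the 10 fasted mice its levels lay between 4.91 and 13.0, around a median of 8.47. Of these mice, 7 lay above the highest chow mouse and 1, mouse 1434, lay below the lowest, so that the groups overlapped at both ends. Its log2 fold change was 0.67 ± 0.12, or 1.59-fold (edgeR adjusted p = 0.000938). It stayed between 0.62 and 0.73 with each mouse left out in turn. The fasted mice also spread more, with an SD of 2.45 CPM against 0.684 on chow.

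The rise of Osmr was seen over the columns of a mouse and not in its highest column alone. The medians over mice of the lowest, middle and highest usable column were 4.60, 5.66 and 9.30 CPM on chow and 6.12, 8.99 and 13.1 CPM after fasting. The highest usable column of any mouse had 23.9 CPM and belonged to fasted mouse 1455. Columns of 1 mouse are different brain regions, which could not be assigned. Over the mice of both studies together, the highest usable column was 1.84 times the lowest in the median mouse. The 4 columns without any Osmr count were all among the low columns.

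**Figure D4:**
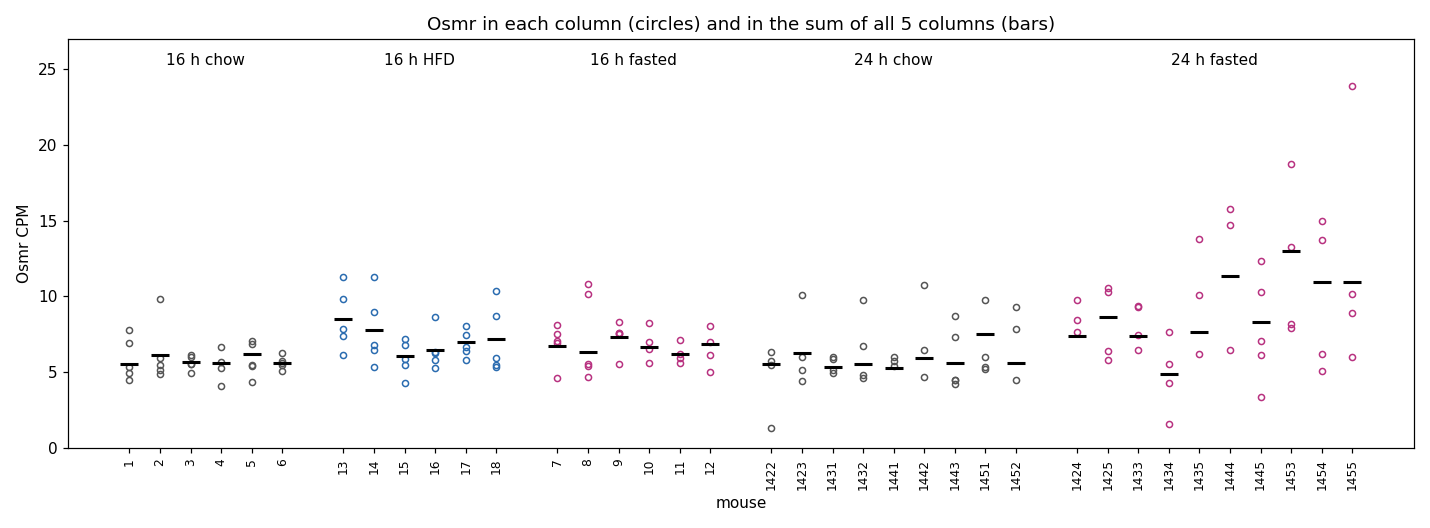
Osmr CPM (y axis, linear, from 0) in each usable column of a mouse (open circles) and in the sum of all 5 columns (black bars), with mice in order of their number within each group (x axis). In the 24 h fasted mice 7 of 10 sums lie above the highest chow sum of 7.49, and the single highest column, at 23.9, belongs to mouse 1455.

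The other ligand-binding receptors also rose, except Cntfr. Il6ra ran from 5.53 to 8.77 CPM on chow (median 6.77) and from 7.15 to 12.2 after fasting (median 8.77), with a log2 fold change of 0.52 ± 0.10 (edgeR adjusted p = 0.00219). Of the 10 fasted mice, 5 lay above the highest chow mouse and all lay above the chow median. Lifr ran from 93.5 to 138 CPM on chow (median 112) and from 120 to 152 after fasting (median 134), with a log2 fold change of 0.29 ± 0.06 (adjusted p = 0.00462). All 10 fasted mice lay above the chow median for Lifr, but only 3 above the highest chow mouse. Cntfr had medians of 57.2 CPM on chow (43.3 to 71.7) and 62.6 after fasting (52.3 to 72.9), and its difference was within the spread of the mice (log2 fold change 0.13 ± 0.09, adjusted p = 0.420).

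Il6st, the shared subunit, fell. It ran from 148 to 199 CPM on chow with a median of 165, and from 97.3 to 155 after fasting with a median of 128. Of the 10 fasted mice, 9 lay below the lowest chow mouse, and the fasted mouse 1425 at 155 CPM was the exception. The log2 fold change was -0.33 ± 0.06, or 0.795-fold (edgeR adjusted p = 0.000945). Without chow mouse 1451, the highest of its group for both Il6st and Osmr, the values were -0.30 for Il6st and 0.71 for Osmr.

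Downstream of the receptors, Stat3 shifted less than the called receptors, and the size of the Socs3 shift depended on mouse 1453. Stat3 ran from 46.8 to 59.4 CPM on chow (median 55.3) and from 50.7 to 68.8 after fasting (median 60.4), a rise of 0.17 ± 0.04 on the log2 scale (edgeR adjusted p = 0.0117). Of the fasted mice, 6 of 10 lay above the highest chow mouse. Socs3 ran from 1.34 to 2.55 CPM on chow (median 1.81) and from 1.68 to 6.30 after fasting (median 2.25). For Socs3, 9 of 10 fasted mice lay above the chow median and 3 above the highest chow mouse. Mouse 1453 alone was at 6.30, and the next fasted mouse, 1425, was at 3.66. Socs3 had a log2 fold change of 0.55 ± 0.20 (adjusted p = 0.0795), and without mouse 1453 it was 0.35 (adjusted p = 0.115). DESeq2 called Socs3, with an adjusted p of 0.0411 at a log2 fold change of 0.56. The call of Socs3 thus differed between the tests.

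Markers of other cells moved at 24 h beside these genes. Of 55 markers in 9 lists, 1 was called higher and 16 lower after fasting, beside 5.78% and 5.62% of all genes, with a median log2 fold change of -0.13. The lower ones were 4 of 6 fibroblast and meninges markers, 4 of 6 microglial, 3 of 6 mural, 3 of 7 endothelial and 2 of 7 astrocyte markers. The neuron, blood and choroid plexus lists had 0 called, and Mobp of myelin was the 1 called higher. Aqp4, the water channel of astrocyte endfeet, ran from 196 to 312 CPM on chow and from 100 to 180 after fasting (log2 fold change -0.85 ± 0.10, edgeR adjusted p = 1.3e-05). Cldn5, a tight junction gene of endothelium, ran from 20.5 to 43.8 and from 15.1 to 26.8 CPM. Among lists with a called marker, the median log2 fold change was 0.14 for astrocyte, 0.01 for endothelial and -0.13 for oligodendrocyte markers. It was -0.30 for mural, -0.53 for microglial and -0.88 for fibroblast and meninges markers. Aqp4, Cldn5 and Mobp thus do not stand for their lists. The summed levels ran from 44.0 to 192 CPM on chow and from 38.9 to 84.7 after fasting for fibroblast and meninges markers, and from 117 to 162 and from 93.8 to 151 CPM for microglial markers. No marker of the 9 lists was at 0 in all mice of a group, and the part of these shifts in the fall of Il6st or the rise of the receptors was not tested.

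The most abundant choroid plexus transcript was uneven at 24 h. Ttr was at 3651 CPM in fasted mouse 1453, which had the most Osmr and Socs3, and at 1576 CPM in chow mouse 1443. The median of Ttr was 42.0 CPM on chow and 25.7 after fasting. With the column of highest Ttr left out of each mouse, the log2 fold changes were 0.68 for Osmr, 0.49 for Il6ra, 0.30 for Lifr, 0.18 for Stat3 and -0.36 for Il6st, all called, and 0.37 for Socs3 (edgeR adjusted p = 0.0934). Without mice 1423 and 1454 the same 5 genes were called, with Osmr at 0.66 and Il6st at -0.33.

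The difference between the fasting effects of the studies was tested in 1 fit over all 37 mice, and none of the 7 genes passed. Of 30849 genes tested, 523 (1.7%) were called. The difference, 24 h minus 16 h, was 0.45 ± 0.16 on the log2 scale for Osmr (edgeR adjusted p = 0.194), 0.44 ± 0.15 for Il6ra (adjusted p = 0.157) and 0.22 ± 0.09 for Lifr (adjusted p = 0.308). For Il6st it was -0.26 ± 0.09 (adjusted p = 0.163), for Stat3 0.20 ± 0.06 (adjusted p = 0.145), for Socs3 0.72 ± 0.26 (adjusted p = 0.222) and for Cntfr 0.13 ± 0.12 (adjusted p = 0.829). A call at 24 h and none at 16 h therefore does not show that the effects differ, and duration cannot be told apart from housing, regions and sequencing run.

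Of the cytokine genes, Il6, Il27 and Osm were barely detected. Others had more counts, with 113 to 195 per 16 h chow mouse for Clcf1, 67 to 145 for Ctf1 and 54 to 140 for Lif. Il6 had 0 to 31 counts per mouse and Il27 0 to 9, and both stayed below the filter on low counts. Osm, which encodes oncostatin M, the ligand of Osmr, had 2 to 34 counts per mouse and was tested only at 24 h, where its log2 fold change was 0.68 ± 0.34 (edgeR adjusted p = 0.219). Of 8 ligand genes tested at 24 h, 1 was called, a share near the 11.4% of all genes: Il11 fell from a median of 0.424 to 0.301 CPM, with a log2 fold change of -0.43 ± 0.13 (adjusted p = 0.0330). Its call was lost under 11 of 25 alternatives. The median over the 8 genes was -0.18. At 16 h, 0 of 7 ligand genes were called in either comparison.

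Of the other receptors, 0 of 3 were called in any comparison. The most abundant was Il11ra1, the receptor of IL-11, with medians of 14.0 CPM on chow and 14.4 after 24 h of fasting (log2 fold change 0.09 ± 0.07, edgeR adjusted p = 0.477). The median over the 3 receptors was 0.09 at 24 h, 0.22 on HFD and 0.28 after 16 h of fasting. Jak1, the most abundant kinase of the pathway, had log2 fold changes of 0.02 ± 0.06 at 24 h, 0.10 ± 0.04 on HFD and 0.06 ± 0.04 after 16 h of fasting, with adjusted p of 0.884, 0.507 and 0.765.

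Of 9 feedback and adaptor genes, 2 were higher and 1 lower at 24 h, where 5.78% of all genes were called higher and 5.62% lower. Ptpn11, the phosphatase SHP2 that binds gp130 and opposes STAT3 while it opens the MAP kinase route, ran from 174 to 244 CPM on chow and from 260 to 328 after fasting. The groups did not overlap, and the log2 fold change was 0.51 ± 0.06 (edgeR adjusted p = 1.2e-05). Among the 29011 genes tested at 24 h, 207 were higher in every fasted mouse than in every chow mouse. Pias1, an inhibitor of STAT proteins, rose by 0.19 ± 0.04 (adjusted p = 0.00884), and Socs1, a relative of Socs3, had a log2 fold change of -0.48 ± 0.13 (adjusted p = 0.0174). The median over the 9 genes was 0.07. At 16 h, 0 of 9 were called, and Ptpn11 had log2 fold changes of -0.01 ± 0.04 on HFD and 0.07 ± 0.04 after fasting. The fasting effects on Ptpn11 differed between the studies by 0.45 ± 0.08 (adjusted p = 0.000678).

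**Figure D5:**
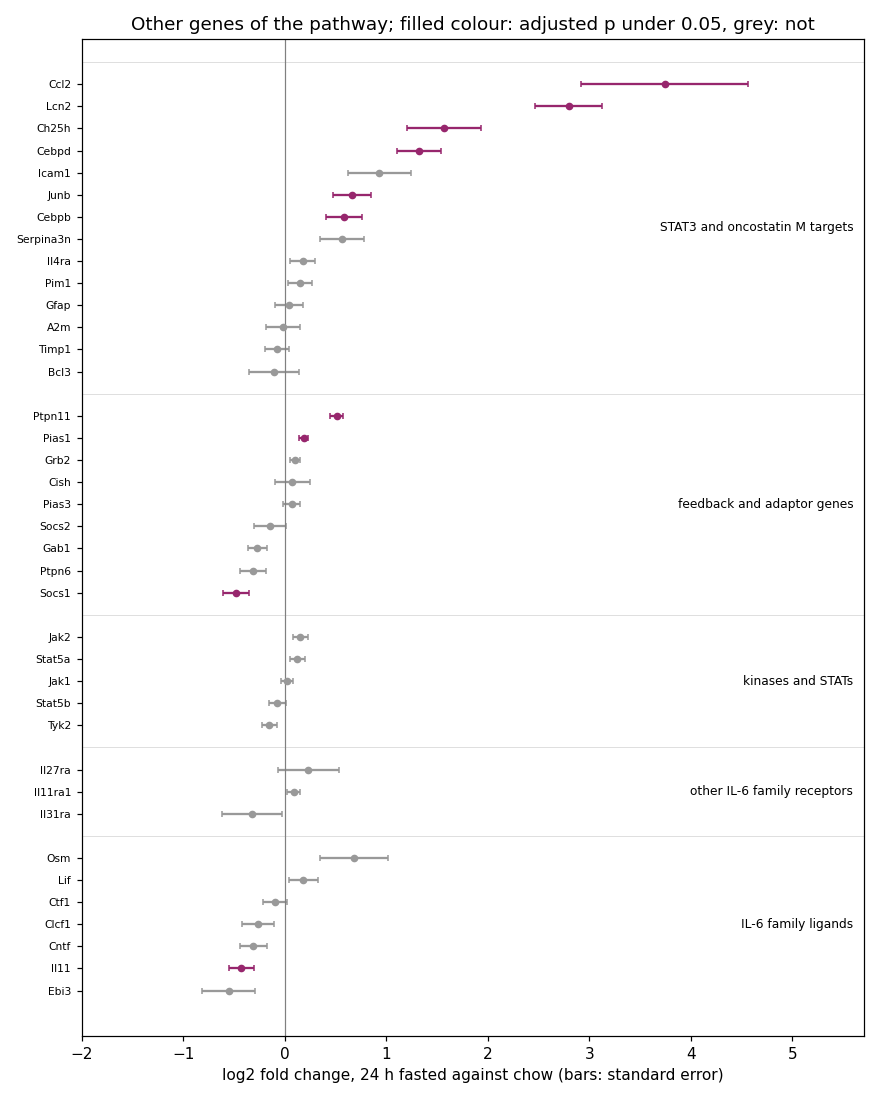
The log2 fold change of other pathway genes between 24 h fasted and chow mice (x axis, 0 marked by a grey line) with bars for the standard error, by gene list (y axis), with genes at an edgeR adjusted p under 0.05 in colour. The largest values shown are those of Ccl2 at 3.74 and Lcn2 at 2.80, and Ptpn11 is at 0.51.

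Several known targets of STAT3 and oncostatin M rose by edgeR. Of 14 targets, 6 were called higher and 0 lower at 24 h, beside 5.78% and 5.62% of all genes, with a median log2 fold change of 0.57 against -0.0044 over all genes. Like the other lists, this list was chosen with earlier results of these data known, so its count is not a test of the list. Lcn2, an iron-trapping acute phase gene, ran from 0.0802 to 0.417 CPM on chow and from 0.420 to 2.74 after fasting, just without overlap, with a log2 fold change of 2.80 ± 0.33 (edgeR adjusted p = 9e-06). Such a rise without overlap was seen in 207 of 29011 genes. Ccl2, a chemokine for monocytes, had 0 to 11 counts per chow mouse and 6 to 387 per fasted mouse, with the fasted mice 1425 and 1453 far above the rest. Its log2 fold change was 3.74 ± 0.82 (adjusted p = 0.00462), and 3.15 without mouse 1425. Ch25h, a cholesterol hydroxylase, had 1.57 ± 0.37 (adjusted p = 0.00710). The others called were Cebpd at 1.32, Junb at 0.66 and Cebpb at 0.58, which are named outside the rule because the count is small. Under limma on the averaged columns Lcn2 and Cebpd kept their call, while those of Ccl2, Ch25h, Junb and Cebpb, and of Pias1 among the feedback genes, were lost. Over all 25 alternatives the call of Cebpb was lost under 17 and that of Junb under 3. Gfap, the intermediate filament of astrocytes, had 0.05 ± 0.14 at 24 h (adjusted p = 0.889).

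At 16 h, 0 of 13 targets were called in either comparison. Gfap, the most abundant of them, ran from 155 to 243 CPM on chow, from 187 to 268 on HFD and from 171 to 282 after fasting. Its log2 fold change was 0.30 ± 0.12 on HFD (edgeR adjusted p = 0.503) and 0.16 ± 0.12 after fasting (adjusted p = 0.771). The median over the 13 targets was 0.10 on HFD and 0.01 after fasting. The fasting effects on Lcn2 differed between the studies by 3.51 ± 0.57 (adjusted p = 0.000288), at low counts of 2 to 21 per mouse in the 16 h chow and fasted mice. At 16 h, 38 of the 42 pathway genes were tested, and 40 at 24 h.

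The genes whose level followed Osmr most closely over the 18 mice of the 16 h study were not of this pathway. Among 16733 genes whose log2 CPM averaged 1 or more, Pearson's r with Osmr was highest for Dph1 (0.82), Psph (0.81), 4921511I17Rik (0.79), Pabpc1 (0.77) and Slc1a1 (0.77). Over the 19 mice of the 24 h study r was 0.08, -0.02, 0.35, 0.21 and 0.29 for the same genes. These are the extremes of many correlations over mice that share diets and depth, and they are given as a description.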

How the data were processed

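RNA-seq libraries of 5 brain regions from each of 37 mice were made after depletion of ribosomal RNA. The submitters' processing notes name bcl2fastq 2.20.0, STAR 2.7.3a, R 4.1.3 and the build GRCm39. The authors deposited raw read counts per Ensembl gene, without normalization or filter, for 57010 genes and 185 columns, and the strand of the counts is not given in the sources used here. Each of 37 headings stands over 5 columns and names a mouse, so columns were assigned to mice and not to regions, and their counts were added up per mouse. Groups came from the diet and duration labels. Low columns stayed in the sums, which weight regions by depth. The mix of regions in a sum therefore differs between mice, above all at 24 h, where most low columns lie.

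The tests were run in R 4.3.3 with the quasi-likelihood method of edgeR 4.0.16, after filterByExpr and TMM scaling, with p-values adjusted after Benjamini-Hochberg over all genes tested and a threshold of 0.05. The 3 diets at 16 h shared 1 fit, and 24 h mice were fitted apart. DESeq2 1.42.0 (genes with a count sum over 10), limma 3.58.1 on column log2 CPM averaged per mouse, other size factors, no filter, covariates, cage sums and left-out mice or columns were alternatives. Correlations with Osmr used log2 CPM with a prior count of 2. The left-out column of highest Ttr was added after the data had been seen. The members and lists were chosen with earlier results of these data known. Named were the 7 members, up to 3 called genes of each of 5 pathway lists with the largest change, or else the list's most abundant gene, and the 5 genes most like Osmr. Some genes of the lists are not reported here. Levels per kilobase used the merged exons of GENCODE vM39. Figures and sums used Python 3.11.15, numpy 2.4.6, pandas 2.3.3 and matplotlib 3.10.9.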

Additional observations from a re-analysis of the deposited data

Results flagged for a closer look

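In each of the 35 combinations of 7 genes and 5 groups, the highest and the lowest mouse were compared with the rest of their group by Dixon's criterion, which chance meets in about 1 of 20 groups. It was met in 5. In the 24 h chow group, mouse 1451 was highest for Osmr, at 7.49 CPM, and for Il6st, at 199 CPM. In the 16 h fasted group, mouse 12 was highest for Il6ra, at 9.23 CPM, and mouse 8 for Socs3, at 2.73 CPM. In the 24 h fasted group, mouse 1453 was highest for Socs3, at 6.30 CPM. Mouse 1453 also had 3651 CPM of the choroid plexus transcript Ttr, and the part of this in its Socs3 level was not tested.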

How the results depend on the processing

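At 24 h, the count of called genes was 3307, and 2006 with limma on column log2 CPM averaged per mouse, which gives a nearly empty column the weight of a full one. That setting called 547 genes higher and 1459 lower (27.3% higher), where edgeR on the sums called 1676 higher and 1631 lower. Of the members it called 2, Osmr and Lifr, while Il6ra (edgeR 0.52, here 0.37), Stat3 (here 0.16) and Il6st (here -0.26) had limma adjusted p of 0.0729, 0.227 and 0.143. DESeq2 called 6 members at 24 h, and the other 5 alternatives called 5 members each. With each mouse left out in turn, 5 members were called every time, and 2685 to 3725 genes. For HFD against chow, DESeq2 called 5 genes instead of 0, and 1 of the members, Osmr, in the contrast the members were chosen by. For fasting at 16 h, DESeq2 called 19 genes instead of 0. With each mouse left out, 0 genes and 0 members were called in both 16 h comparisons. For fasting at 16 h the sign turned with limma for Cntfr (-0.0203), Stat3 (0.0530) and Socs3 (0.18). For Cntfr it also turned with the clock time of euthanasia as a covariate (-0.0028), without the column of highest Ttr (-0.0304) and when mice were left out (-0.0401 to 0.0265). For the test between the fasting effects, 487 genes were called without the low columns and 665 by DESeq2, against 523, with 0 members in each. No paired analysis was possible because the groups share no mouse numbers, so mice could not be paired by number. With the round of cages as a covariate, 0 genes and 0 members were called in both 16 h comparisons, with Osmr at 0.34 on HFD and 0.23 after fasting. The causes of these differences were not tested. Low counts limit Socs3 and the ligands most.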
